A study of Homo sapiens with 2 samples.

Results

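The inhibitor of apoptosis (IAP) gene family was followed on a quantitative PCR plate of 84 apoptosis genes, of which 6 belong to it: BIRC2, BIRC3, BIRC5, BIRC6, NAIP and XIAP. The plate was run on LNCaP cells, an established androgen-sensitive line of human prostate adenocarcinoma, in 1 untreated control sample and 1 sample given C-PC at 500 µg/mL for 24 h. C-PC is C-phycocyanin, the blue light-harvesting protein of cyanobacteria. The deposited tables name wells by plate position and not by gene. The 6 genes were taken as wells B08, B09, B10, B11, F01 and G12, following the layout of the catalogued array that the labels name (PAHS-012Z, genes in alphabetical order of symbol). That layout was not checked against a gene table here, so every gene name below rests on it.

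IAP proteins share a zinc-binding fold, the baculovirus IAP repeat, and hold back cell death at several steps. XIAP binds and blocks caspases directly, whereas BIRC2 and BIRC3 (cIAP1 and cIAP2) are ubiquitin ligases that act mainly in complexes below the tumour necrosis factor (TNF) receptors. BIRC5, known as survivin, is made chiefly in dividing cells, where it is part of the chromosomal passenger complex that guides chromosome segregation. BIRC6 is a very large ubiquitin-conjugating enzyme, and NAIP is an innate immune sensor of bacterial proteins. In tumours, prostate cancer among them, BIRC5 is commonly more abundant than in the normal adult tissue.

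Each gene had 1 threshold cycle (Ct) per sample. Ct counts the amplification cycles needed for the fluorescence to reach a set level, and 1 cycle later corresponds to a 2-fold lower amount if the product doubles each cycle. A well counted as detected if its Ct was under 35 in both samples, which held for 72 of 84 target wells and for all 6 family genes. The 5 reference wells, H01 to H05 (ACTB, B2M, GAPDH, HPRT1 and RPLP0 in the layout), crossed later in the C-PC sample by 0.76 ± 0.39 cycles (mean and SD over 5 wells). Their shifts ran from 0.21 cycles for RPLP0 to 1.21 for HPRT1. Log2 folds below are C-PC over control, relative to the mean of these 5 wells, and the ± 0.39 beside them is that SD. It covers neither the measurement error of the gene's own well nor variation between cultures. With 1 sample per group no test could be made, no p-value is given, and the values describe these 2 samples.

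BIRC5 was far lower in the C-PC sample, and the other 5 family genes were not. BIRC5 stood at 1.28% of its control level, a 78.2-fold difference, while BIRC3 was 2.34-fold higher, XIAP 2.03-fold higher, NAIP 1.95-fold higher, BIRC2 1.55-fold higher and BIRC6 1.25-fold higher. Of the 6 genes, 2 were at least 2-fold higher, 1 (BIRC5) was lower by at least as much, and the other 3 stayed under 2-fold. Over all 72 detected wells, 20.8% were at least 2-fold higher and 1.39%, which is the BIRC5 well itself, at least 2-fold lower.

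**Figure D1:**
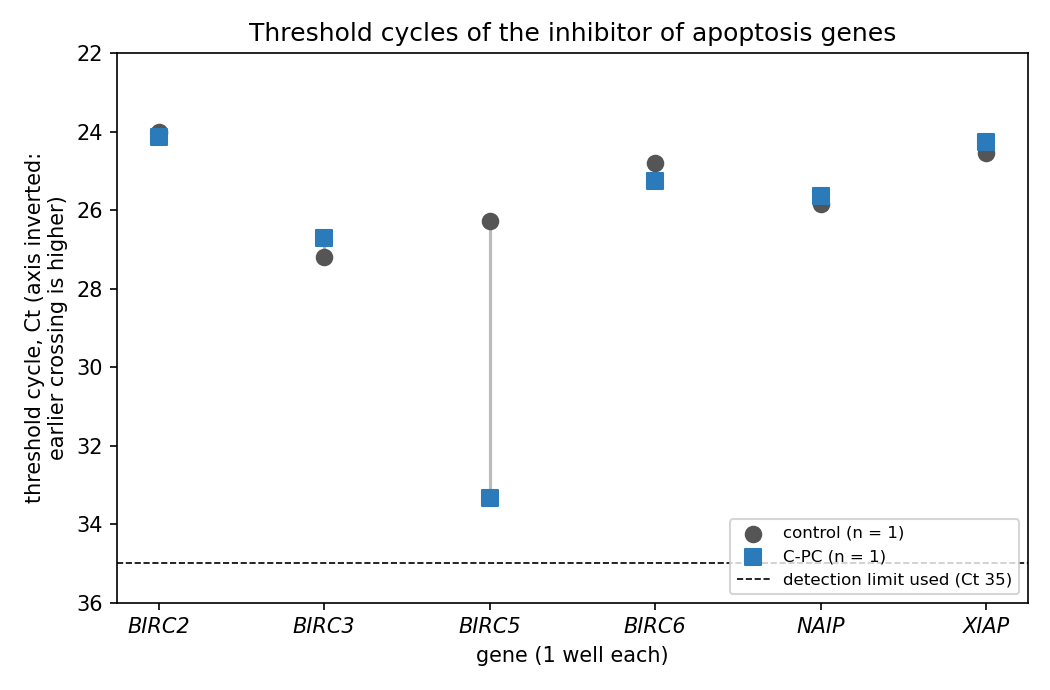
Threshold cycle (Ct) of each IAP family gene in the control sample (circles) and the C-PC sample (squares), 1 well and 1 sample each, on an inverted axis so that earlier crossing is higher. The dashed line marks the Ct of 35 used as the detection limit. BIRC5 went from 26.3 to 33.3, and the other 5 genes moved by less than 0.5 cycles.

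The BIRC5 well crossed at a Ct of 26.3 without C-PC and of 33.3 with it. In the control it lay among the other family genes, which crossed between 24.0 and 27.2. In the C-PC sample it crossed 6.61 cycles after BIRC3, the next latest of the family. The shift of 7.04 cycles gave a log2 fold of -6.29 ± 0.39, which is 16.1 times the SD of the reference shifts.

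BIRC5 also took a different place in the order of crossing. Without C-PC, 36 of the 84 target wells crossed later than BIRC5, and with C-PC only 16 did. Among those 16 were wells with a value of exactly 35, such as CD27, IL10 and TNFRSF9. Whether that value is a measured crossing is not known here. Within 1 cycle of its C-PC value lay 8 other wells: CASP1, CD70, DAPK1, HRK, LTA, PYCARD, TNFRSF1B and TNFSF8. Those 8 had control Ct values from 31.8 to 37.4, so each was already late without C-PC, which BIRC5 was not. Their own shifts (C-PC minus control) ran from -5.01 cycles for CD70 to 1.635 for PYCARD, with TNFSF8 at -2.67. CD70 and TNFSF8 were past the detection limit in the control, at 37.4 and 36.5. CD70 and TNFSF8 thus differed by several cycles between the 2 samples, a spread that the SD of the reference shifts does not cover. Whether this came from the measurement or from the samples was not tested. The rest of the 8, detected in both samples, shifted by -0.95 cycles (HRK) to 1.635 cycles (PYCARD). Among 16 detected wells outside the family that crossed within 1 cycle of BIRC5 in the control, log2 folds ran from -0.56 to 3.05 with a median of 0.67. BIRC5 was the lowest of all 72 detected wells, so none of these 16 could lie below it.

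The next lowest detected well was PYCARD, an inflammasome adaptor, with a log2 fold of -0.88, and the gap to BIRC5 was 5.41. Against single reference wells the BIRC5 log2 fold lay between -6.83 with RPLP0 and -5.84 with HPRT1. Relative to the median of the 72 detected wells (the plate median) it was -6.80. If the product grew by 1.9-fold or 1.8-fold per cycle and not by 2-fold, the difference would be 56.7-fold or 40.3-fold. The C-PC value lay 1.67 cycles before the detection limit, where Ct values are least exact, and the spread of its runs is not known. Survivin transcript is concentrated in dividing cells, and a bulk sample cannot tell fewer such cells from less transcript per cell.

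XIAP, the direct inhibitor of caspases, crossed at 24.5 without C-PC and 24.3 with it. Its log2 fold was 1.02 ± 0.39, just past 2-fold. Across single reference wells this ranged from 0.48 with RPLP0 to 1.48 with HPRT1, and relative to the plate median it was 0.51. The call therefore turned on the reference, and the earlier crossing amounted to 0.27 cycles before any scaling.

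BIRC2 and BIRC3 are sister genes that lie next to each other in the RefSeq annotation, with no annotated gene between them. BIRC2 crossed at 24.0 without C-PC and 24.1 with it. BIRC3 crossed later, at 27.2 and 26.7. Their log2 folds were 0.63 ± 0.39 for BIRC2 and 1.22 ± 0.39 for BIRC3. The ratio of BIRC3 to BIRC2, in which the reference wells cancel, was 1.51-fold higher in C-PC. Over all pairs of detected wells the median change was 1.56-fold either way. Relative to the plate median, BIRC2 was at 0.12 and BIRC3 at 0.71, neither of them past 2-fold.

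NAIP crossed at 25.9 without C-PC and 25.6 with it. Its log2 fold of 0.96 ± 0.39 fell just short of 2-fold, and relative to the plate median it was 0.45. The NAIP locus has partial copies in the human genome, and without the primer sequences, which were not used here, their signal and that of NAIP cannot be told apart. BIRC6 crossed at 24.8 without C-PC and 25.3 with it. Its log2 fold of 0.32 ± 0.39 was smaller than the SD of the reference shifts, and it was below 0 with RPLP0 alone (-0.22) and with the plate median (-0.20).

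**Figure D2:**
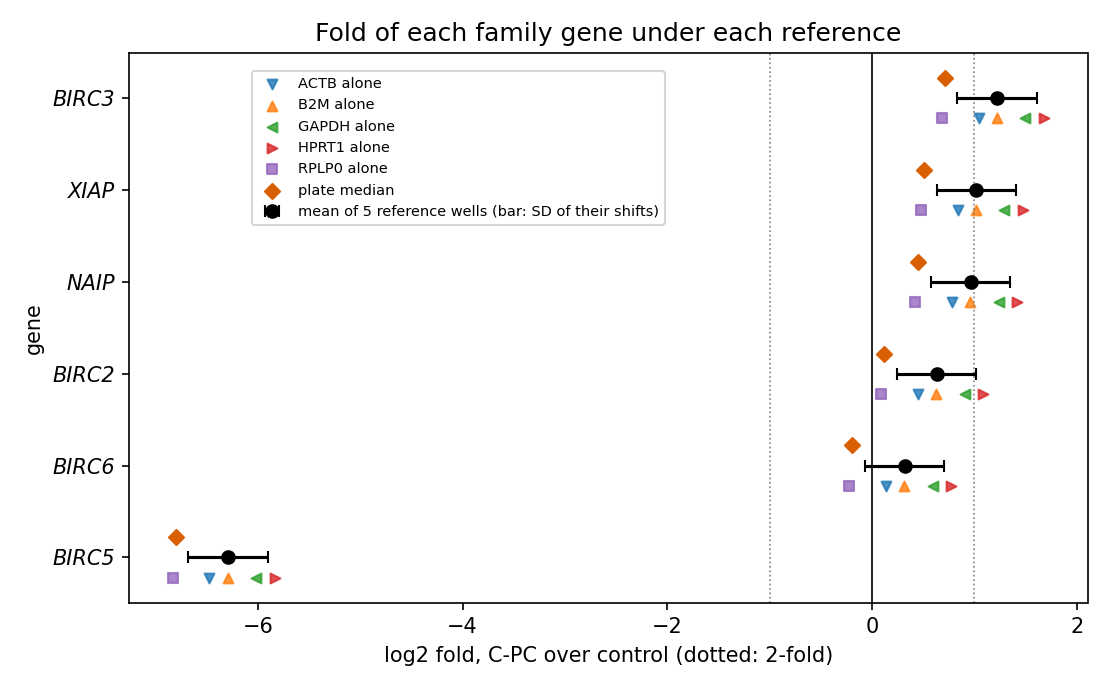
Log2 fold (C-PC over control, horizontal axis) of the 6 genes relative to the mean of the 5 reference wells (black circles, bars show the SD of the 5 reference shifts), to each reference well alone and to the plate median (diamonds). Dotted lines mark 2-fold either way. BIRC5 lies between -6.83 and -5.84 under the reference wells, and the places of BIRC3, XIAP and NAIP beside the 2-fold line depend on the reference.

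The other 5 family genes lay within the range of the plate as a whole. The median log2 fold of the 5 genes other than BIRC5 was 0.96, of all 6 genes 0.80, and of the 72 detected wells 0.51, with quartiles of 0.22 and 0.87. Above 0 lay 5 of the 6 family genes and 58 of the 72 detected wells, or 80.6%. Before scaling to the reference wells, 3 of the 6 genes (BIRC3, NAIP and XIAP) crossed earlier in C-PC, as did 25 of the 72. By the plate median, 0 of the 6 genes were higher by 2-fold or more, where 9.72% of the detected wells were, and 1 of the 6 (BIRC5) was lower by as much, where 6.94% of the wells were.

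**Figure D3:**
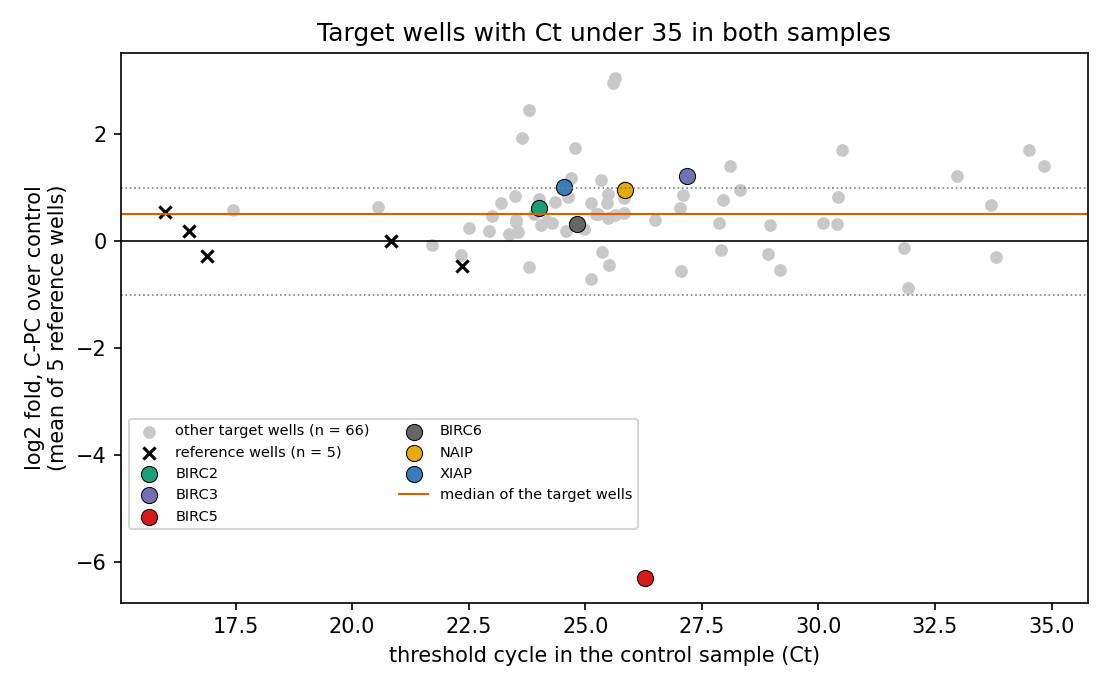
Log2 fold (C-PC over control, relative to the mean of the 5 reference wells) of every target well with a Ct under 35 in both samples, against its control Ct. Family genes are coloured, the other 66 target wells grey, the reference wells crosses, and the orange line is the median of the 72 target wells at 0.51. The 5 other family genes lie within the cloud, and BIRC5 lies 5.41 below the next lowest well.

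Ratios between family genes do not depend on the reference wells. They are differences of the same Ct shifts that gave the folds above, so the distance of BIRC5 here restates those folds. Of 15 pairs, the 5 that include BIRC5 shifted by 97.5-fold (against BIRC6) to 183-fold (against BIRC3). Against the mean of the other 5 genes, BIRC5 was 139-fold lower in C-PC, a log2 difference of -7.12. The 10 pairs without BIRC5 shifted by 1.04-fold to 1.88-fold, with a median of 1.28-fold. The smallest was NAIP with XIAP and the largest BIRC3 with BIRC6. Of all 15 family pairs 5 passed 2-fold, each of them with BIRC5, beside 32.4% of all 2556 pairs of detected wells. Of the 10 pairs without BIRC5 0 did, beside 30.5% of the 2485 pairs that leave out BIRC5. BIRC5 was set apart because of its own value, so the 10 remaining pairs are not a neutral picture of the family. Pairs share genes and are not independent of one another.

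**Figure D4:**
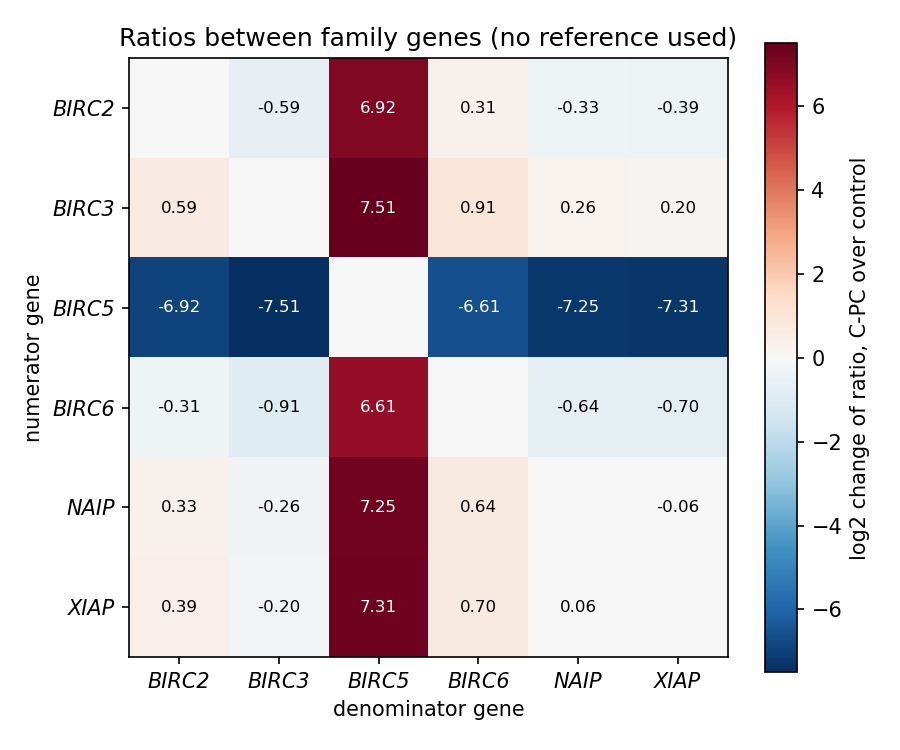
Log2 change (C-PC over control) of the ratio of each family gene (rows) to each other family gene (columns), calculated from Ct values without reference wells. Every ratio with BIRC5 differed by 6.61 or more, and the ratios among the other 5 genes by at most 0.91.

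None of the genes described here whose products work with IAP proteins approached the difference of BIRC5, and their log2 folds ran from -0.88 for PYCARD to 1.23 for TNFRSF1B. Of 16 such partner genes described here, all detected, 1 was at least 2-fold higher in C-PC, 0 were lower by as much, and the other 15 stayed under 2-fold, beside the 20.8% and 1.39% of all detected wells. By the plate median the tally turned to 0 higher and 1 lower, PYCARD, which was 2.63-fold lower. The median log2 fold of the 16 genes, relative to the reference wells, was 0.42, against 0.51 for the 72 detected wells.

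CASP9, the caspase that starts the mitochondrial cascade and one that XIAP binds, crossed at 25.2 in the control and 25.5 in C-PC, with a log2 fold of 0.51 ± 0.39. The XIAP to CASP9 ratio, which needs no reference well, was 1.42-fold higher in C-PC. That is less than the median change over all pairs of detected wells, 1.56-fold either way.

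DIABLO (Smac), the mitochondrial protein that displaces caspases from IAPs, crossed at 23.0 in the control and 23.3 in C-PC, a log2 fold of 0.47 ± 0.39. The XIAP to DIABLO ratio was 1.46-fold higher in C-PC, also under the 1.56-fold median of all pairs. The BIRC5 to DIABLO ratio was 109-fold lower. CYCS, which encodes the cytochrome c that triggers the apoptosome, was at 0.78 and APAF1, the scaffold of the apoptosome, at -0.21. None of these 3 genes was past 2-fold.

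Among 9 genes of TNF receptor and NF-kB signalling, where BIRC2 and BIRC3 act, the median log2 fold was 0.51. TNFRSF1B, the second TNF receptor, was the 1 gene past 2-fold, at 1.23 ± 0.39, from late Ct values of 33.0 and 32.5. By the plate median it was at 0.71, and it was also under 2-fold with RPLP0 alone. It was also the gene with the log2 fold nearest to that of BIRC3 over the 2 samples. TRAF2, the adaptor that recruits BIRC2 and BIRC3, was the lowest at -0.44 ± 0.39. The ratio to TRAF2 was thus 3.18-fold higher for BIRC3 and 2.11-fold higher for BIRC2. TRAF2 was named as the lowest of its list, and 32.4% of all pairs of detected wells shifted by at least 2-fold. NFKB1, which encodes an NF-kB subunit, was at 0.82. The BIRC3 to NFKB1 ratio was 1.33-fold higher, under the 1.56-fold median of all pairs of detected wells.

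The 3 genes nearest to NAIP in function, NOD1 (a sensor of bacterial cell wall), PYCARD and CASP1 (the inflammasome caspase), had log2 folds of -0.23, -0.88 and -0.13. All 3 were below 0 relative to the mean of the reference wells, while NAIP was at 0.96. NOD1 and CASP1 were nearer to 0 than the SD of the reference shifts (0.39). Both were above 0 with GAPDH alone or HPRT1 alone, whereas PYCARD was below 0 with every reference well. PYCARD and CASP1 were late in both samples, at 31.9 and 33.6 and at 31.8 and 32.7. Besides TNFRSF1B for BIRC3, the genes outside the family with the nearest log2 fold were BCL2L11 for BIRC2, TNF for BIRC6, TRADD for NAIP and TNFRSF21 for XIAP, each at most 0.014 away over these 2 samples. BIRC5 had no near neighbour.

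**Figure D5:**
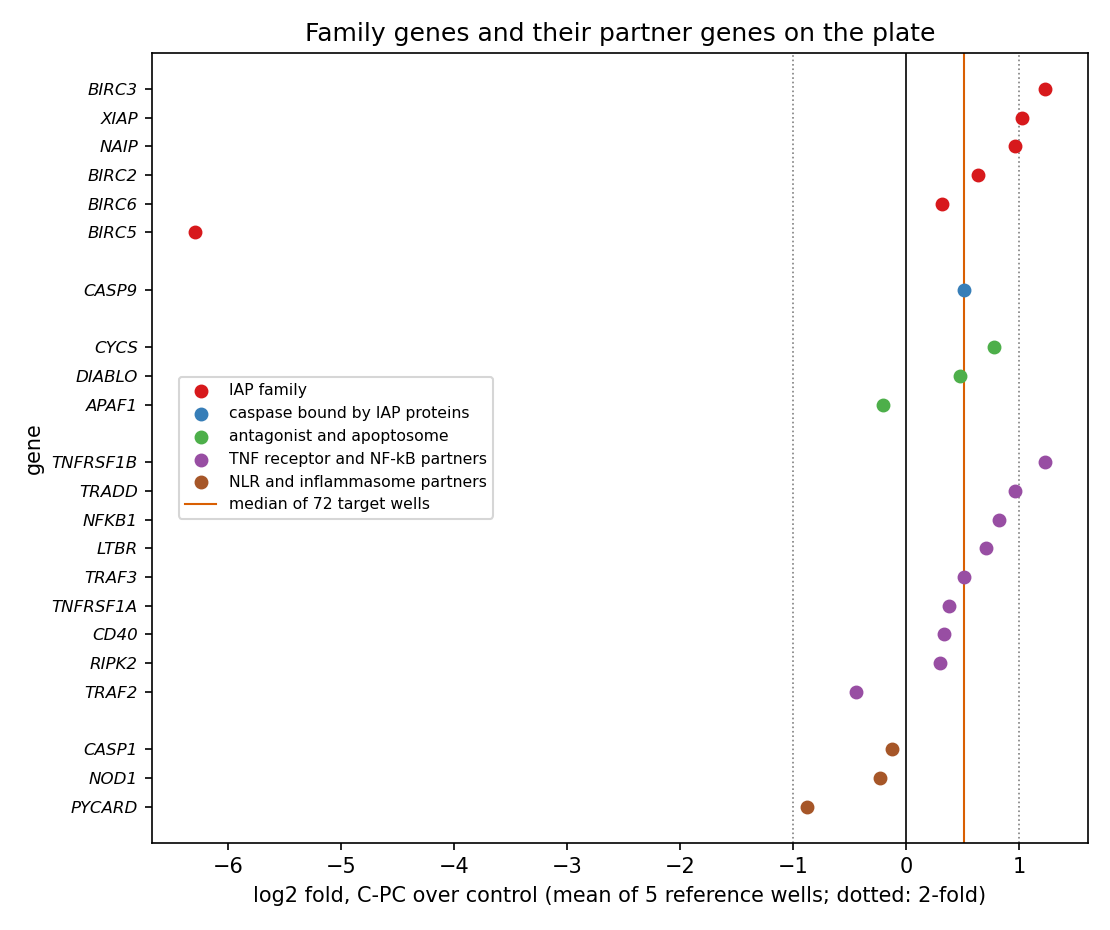
Log2 fold (C-PC over control, relative to the mean of the 5 reference wells) of the 6 family genes and 16 partner genes, 1 point per gene, coloured by group. The orange line is the median of the 72 detected wells (0.51) and dotted lines mark 2-fold. BIRC5 lies at -6.29, and the partner genes lie between -0.88 and 1.23.

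LNCaP is an epithelial line, and the plate holds 8 genes chiefly made by lymphocytes (CD27, CD40LG, CD70, FASLG, IL10, LTA, TNFSF8 and TNFRSF9). Of these, LTA was the 1 detected in both samples, while CD27 and TNFRSF9 were under 35 without C-PC only, CD70 and TNFSF8 with C-PC only, and the other 3 in neither. CD27 and TNFRSF9 stood at exactly 35 with C-PC, as did IL10 in both samples, and those values may not be measured crossings. The control values of the 8 spanned 33.0 to 37.4 and the C-PC values 32.4 to 38.3. The plate holds no marker that defines prostate epithelium, so the labelled cell type could not be checked further.

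In the authors' deposited table of fold changes, BIRC5 stood at 0.0127, BIRC3 at 2.33, XIAP at 2.02, NAIP at 1.94, BIRC2 at 1.54 and BIRC6 at 1.24. In the authors' deposited table of ratios to the reference wells, BIRC5 stood at 0.00456 in the control and 5.81e-05 in C-PC.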

How the data were processed

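RNA of 1 control and 1 C-PC sample was measured on the apoptosis PCR array. Per the labels' protocols, 1000 ng of RNA was reverse transcribed and taken through 40 SYBR Green cycles, with 3 runs of every sample. The authors deposited 1 raw Ct per well and sample, not normalized, per the file headers, and a fold change (2 to the power of minus ΔΔCt with housekeeping normalization, again per the file headers). A ratio per well and sample was also deposited, with no stated scale. For all 6 family genes it equalled 2 to the power of minus ΔCt against H01 to H05, with a tolerance of 0.02 in log2. The sources used here do not say how the 3 runs were combined or whether they came from separate cultures. They were taken as 1 sample per group.

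From the Ct values, each well's difference (C-PC minus control) was subtracted from the mean difference of H01 to H05 to give a log2 fold. A Ct under 35 counted as detected, and a 2-fold difference either way was counted. All 89 symbols of the layout occur in the RefSeq gene table for GRCh38.p14. The family, its partner lists and the ratios shown were chosen with earlier results of these data known. Named genes are the 6 members, DIABLO and CASP9, list genes past 2-fold or at the extremes of a list, the reference wells, and the nearest gene by log2 fold for each member. NFKB1, NOD1, the wells near BIRC5 in C-PC and single lymphocyte genes were named after their values were seen. Some genes of the plate are not reported here and were left out of the partner lists. Alternatives were other references, the deposited folds and ratios, amplification of 1.9-fold or 1.8-fold per cycle, a Ct limit of 32, of 37 and no limit, and 1.5-fold or 3-fold as the threshold. The calculation was run on simulated data without noise and with the same shift in every reference well. That checks the arithmetic only and says nothing on the precision of the real values. The software was Python 3.11.15 with pandas 2.3.3, numpy 2.4.6 and, for plots, matplotlib 3.10.9.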

Additional observations from a re-analysis of the deposited data

How the results depend on the processing

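Of 182 alternative values, 123 stayed within the SD of the reference shifts (counts within 1.5 times) and 59 moved further. Of the 182, 0 changed the sign of a gene past 2-fold. Values under 2-fold lie outside that count, and some of them did change sign. These were BIRC2 unscaled, and BIRC6 and the partner median with RPLP0 alone, by the plate median and unscaled, as given below. Part of the 123 could not move, so the tally does not measure robustness. The medians do not depend on the fold threshold, and a higher or absent Ct limit drops no gene already detected. The authors' folds and ratios come from the same Ct values. With HPRT1 alone the log2 folds were 1.09 for BIRC2, 1.68 for BIRC3, -5.84 for BIRC5, 0.77 for BIRC6, 1.42 for NAIP and 1.48 for XIAP. With RPLP0 alone they were 0.090, 0.68, -6.83, -0.22, 0.42 and 0.48, by the plate median 0.12, 0.71, -6.80, -0.20, 0.45 and 0.51, and unscaled (no reference) -0.12, 0.47, -7.04, -0.44, 0.21 and 0.27, in the same order. At 1.9-fold and 1.8-fold per cycle BIRC5 was at -5.82 and -5.33, and BIRC5 against the mean of the other 5 genes at -6.59 and -6.04. Family genes at least 2-fold higher numbered 1 with ACTB alone, 1 without HPRT1, 4 with HPRT1 alone, 0 each with RPLP0, plate-median and no scaling, 4 at a 1.5-fold and 0 at a 3-fold threshold. With a Ct limit of 32 the family genes lower numbered 0, because BIRC5 is then left out. The family median was 1.25 with HPRT1 alone, 0.26 with RPLP0, 0.28 by the plate median and 0.041 unscaled. Partner genes at least 2-fold higher numbered 4 with GAPDH alone, 5 with HPRT1 alone, 2 without RPLP0, 0 with RPLP0 alone, the plate median, no reference, a Ct limit of 32 or a 3-fold threshold, and 5 at 1.5-fold. Partner genes lower numbered 1 with ACTB alone, 1 with RPLP0 alone, 1 by the plate median, 2 unscaled and 1 at 1.5-fold. The partner median was 0.88 with HPRT1 alone, -0.12 with RPLP0, -0.089 by the plate median and -0.33 unscaled. All references move every well by the same amount, so these are not separate checks. No paired analysis was possible because there was only 1 sample a group. The single value per well and late Ct values limit the precision.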
